A study of Mus musculus with 18 samples.

Results

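The genes described here are 9 genes of the interferon response and of the MHC class I pathway, followed on all 18 microarrays of a study of HPRT deficiency: Ifit1, Ifit3, Isg15, Irf7, Bst2, B2m, Tap1, Psmb8 and H2-K1. They were chosen by name, as the probes whose symbol in the array annotation is one of these 9. No measured value entered this rule, but the names were set with earlier results of these data known. The symbols of 8 of the 9 were on the array, with 13 of its 45281 probes, and no probe carried the symbol Isg15. The cells were ESD3, a mouse embryonic stem cell line of strain 129s2/SvPas (the D3 line), grown on a feeder layer of primary mouse embryo fibroblasts. Control cells had been infected with a viral vector that expresses an shRNA to luciferase, and HPRT-knockdown cells with the same kind of vector expressing an shRNA to HPRT, a purine salvage enzyme. Both were examined as embryonic stem (ES) cells, as spherical neural masses (SNM), an intermediate of the differentiation to dopaminergic neurons, and at the final neuronal stage. This gave 6 conditions with 3 arrays each. The RNAs of replicate cultures of a condition were pooled and the pool was hybridised in triplicate, so the spread between arrays and every p-value below covers array error and not the difference between cultures. Both groups carried a vector and no untransduced cells were compared. The arrays can therefore show whether cells with the HPRT vector differed from cells with the luciferase vector in their interferon-response genes, and not whether a vector as such changed them.

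Type I interferons are secreted when sensors of foreign nucleic acid, including double-stranded RNA, are engaged. They bind a receptor made of Ifnar1 and Ifnar2, the kinases Jak1 and Tyk2 then phosphorylate transcription factors that, with Irf9, bind a DNA element, the interferon-stimulated response element (ISRE), in front of genes such as Ifit1, Ifit3 and Isg15. Interferon-gamma signals through Ifngr1 and Ifngr2 and the kinases Jak1 and Jak2, and is a strong inducer of the MHC class I pathway, in which the immunoproteasome cuts proteins into peptides, the Tap1-Tap2 transporter carries the peptides into the endoplasmic reticulum, and class I heavy chains such as H2-K1 present them at the cell surface together with B2m. Embryonic stem cells are known for a weak interferon response and a low class I level, and neurons and oligodendrocytes at rest for little class I.

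The promoters of the genes are shown because some members held a match to a core of the ISRE near the start of transcription and others did not. The sequences are those of RefSeq on GRCm38.p6, in which all 9 genes had an entry, and the window searched ran from 250 bases before to 50 bases after each start. The ISRE core was taken as GAAA, any 2 bases and GAAA again, on either strand (TTTC in the same spacing on the other strand), and matches may overlap. It stood in 5 of the 9 members, Ifit1, Ifit3, Isg15, Bst2 and B2m, against 3.99% of the 27025 genes with a promoter entry. No match was found in the windows of Irf7, Tap1, Psmb8 and H2-K1. In the stretches below, written 5′ to 3′ along the gene, the matches are in capitals:
Ifit1, chr19:34640755-34640843, plus strand: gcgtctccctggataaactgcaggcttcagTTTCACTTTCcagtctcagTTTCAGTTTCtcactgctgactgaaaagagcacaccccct
Ifit3, chr19:34583343-34583446, plus strand: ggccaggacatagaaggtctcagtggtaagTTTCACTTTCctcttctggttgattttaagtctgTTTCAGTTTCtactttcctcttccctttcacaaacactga
Bst2, chr8:71537557-71537632, minus strand: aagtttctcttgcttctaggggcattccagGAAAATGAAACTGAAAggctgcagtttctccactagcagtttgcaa
B2m, chr2:122147518-122147587, plus strand: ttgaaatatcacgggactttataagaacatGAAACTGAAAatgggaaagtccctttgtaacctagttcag
Ifit1 and Ifit3 each held 2 matches, and those of Bst2 overlap each other. A kappaB core, GGGATTCCC on either strand, was found in 112 of the 27025 genes (0.414%). Of the members only H2-K1 held it, and of the 27 class I pathway genes with a promoter entry also H2-D1, H2-Q6 and H2-Q7. The stretches of H2-K1 and H2-D1 around it, with the core in capitals, are near copies of each other:
H2-K1, chr17:34000409-34000497, minus strand: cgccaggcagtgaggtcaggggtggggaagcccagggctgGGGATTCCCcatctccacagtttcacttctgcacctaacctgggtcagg
H2-D1, chr17:35262884-35262972, plus strand: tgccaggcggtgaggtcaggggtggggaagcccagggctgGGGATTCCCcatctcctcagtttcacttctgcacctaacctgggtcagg
A match is a run of letters and not a site shown to be bound. Forms of the ISRE that differ from the core were not searched for, so a gene without a match may still hold one.

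Between 18827 and 22202 probes were detected per array (detection p-value under 0.05), and arrays of a condition correlated at 0.992 to 0.997. The shRNA target, Hprt1, served to check the labels. Its log2 signal averaged 7.95 in knockdown against 12.04 in control ES cells, 9.44 against 11.20 in SNM and 6.60 against 11.05 in neuronal cells (n = 3 arrays each). All 3 falls were called, and the fall was smallest in SNM. Of the markers of pluripotent cells, 10 of 10 were detected on all ES arrays. At the neuronal stage 7 of 9 neuronal markers were detected on every control array and 6 of 9 on every knockdown array. Signals are given below as normalized log2 values, on which probes detected at all began between 4.67 and 4.99, depending on the array. Of several probes to a gene the brightest was used unless stated. The word called is used for differences of at least 1.5-fold, or 0.58 in log2, whose Benjamini-Hochberg adjusted p lay under 0.05 in limma.

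**Figure D1:**
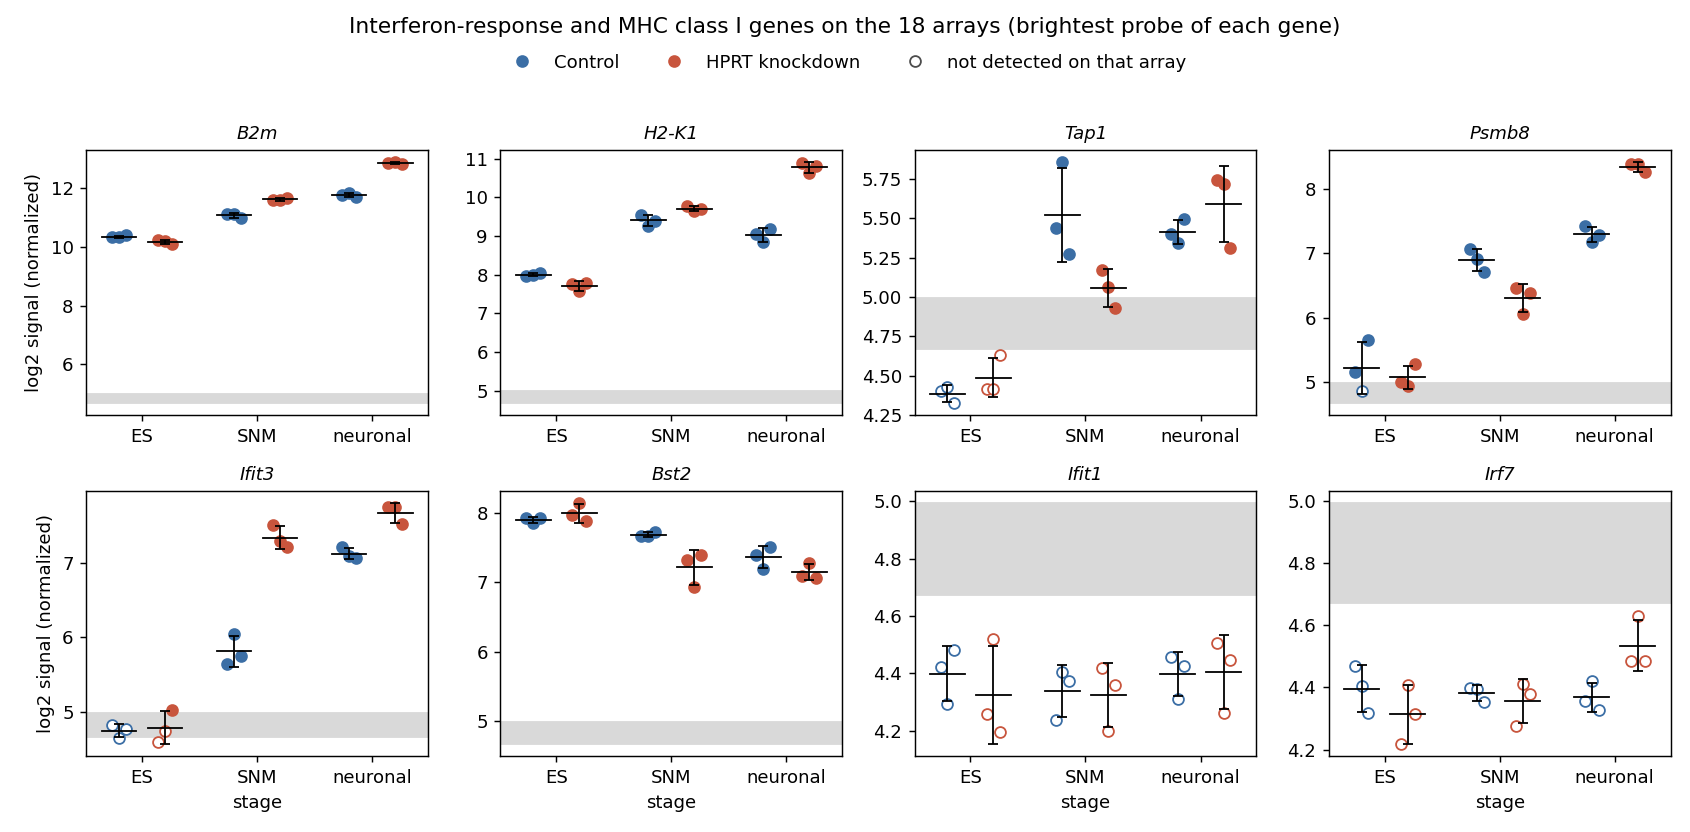
Normalized log2 signal (vertical axis) of the brightest probe of each of the 8 genes on the 18 arrays, by stage, with control arrays in blue and HPRT-knockdown arrays in red. Open circles are arrays on which the probe was not detected, bars are the mean and SD of 3 arrays, and the grey band is the range over arrays of the lowest detected signal; Ifit1 and Irf7 lie under it on all 18 arrays.

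Of the members known mainly as direct interferon targets, Ifit1 and Irf7 were not detected in any condition. Ifit1, an RNA-binding antiviral protein, had a mean log2 signal between 4.32 and 4.41 over the 6 conditions, and its probe was detected on 0 of the 18 arrays. This only probe of Ifit1 carries the symbol but no gene number in the annotation. Irf7, the transcription factor that amplifies interferon production, lay between 4.31 and 4.53, also with 0 of 18 arrays detected. For both probes any change is therefore below what these arrays could measure.

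Isg15, a ubiquitin-like protein, was followed outside the 13 probes, because 1 probe, listed as LOC100038882, carried the NCBI gene number of Isg15. It was not detected on any of the 6 ES arrays or on the 3 control SNM arrays. It was detected at 5.42, 5.18 and 4.98 in knockdown SNM, at 5.98, 5.66 and 5.96 in control neuronal cells and at 5.59, 5.39 and 5.28 in knockdown neuronal cells. At the SNM stage the fitted knockdown signal was 1.54-fold higher (adjusted p = 0.000409, called). Control SNM was read at background there, and the measured bound of 1.35-fold is under the 1.5-fold limit, so the call rests on that reading. At the neuronal stage the knockdown signal was lower by 0.45 in log2 (SE 0.12, adjusted p = 0.00471), under the 1.5-fold limit. The difference between the 2 effects is not given, since control SNM had no measured level. The probe is not counted among the members below.

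At the ES stage no member was called. Of the 4 that could be tested, 0 passed both limits in limma, against 1.68% of the 18411 probes tested, and 2 of the 4 had an unadjusted p under 0.05 at any fold. The paired and unpaired tests named in the study's methods also gave 0. B2m, the light chain of every class I molecule, read 10.33, 10.33 and 10.40 in control cells and 10.25, 10.19 and 10.11 in knockdown cells, a difference of −0.17 (SE 0.06, adjusted p = 0.0659). H2-K1, a classical class I heavy chain, read 7.98, 7.99 and 8.04 against 7.77, 7.57 and 7.79, a difference of −0.29 (SE 0.10, adjusted p = 0.0621). The arrays of the 2 groups did not overlap for either of these probes, with the knockdown arrays the lower ones. The second bright B2m probe differed by −0.24 (adjusted p = 0.00963), and the dim H2-K1 probe by 0.27 with overlapping groups (adjusted p = 0.332). Fibroblast or feeder markers summed to 567 to 618 in knockdown against 776 to 814 in control ES cells. Of 6 tested 0 were called and 5 had an unadjusted p under 0.05 in limma. Their part in these differences was not tested. Psmb8, a catalytic subunit of the immunoproteasome, was at the edge of detection (4.86 to 5.66 in control, 4.94 to 5.28 in knockdown cells), and its difference of −0.15 (SE 0.16) turned to 0.07 when control ES array 3 was left out. Ifit3, Tap1, Ifit1 and Irf7 were not tested, since none was detected on all 3 arrays of a group. Ifit3 was found on 1 of the 6 ES arrays and Tap1 on none.

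Among the spherical neural masses Ifit3 was higher in knockdown cells. Ifit3, an interferon-induced partner of Ifit1, read 5.64, 6.04 and 5.75 in control SNM and 7.50, 7.29 and 7.21 in knockdown SNM. Every knockdown array lay above every control array, and the difference was 1.52 (SE 0.12, 2.87-fold, adjusted p = 2.84e-08). Its second probe was not detected in control SNM and gave at least a 1.80-fold difference the same way (adjusted p = 1.10e-06).

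Psmb8 moved the other way at this stage. It read 7.07, 6.91 and 6.72 in control and 6.47, 6.06 and 6.38 in knockdown SNM, a fall of 0.59 on the log2 scale (SE 0.16, 1.51-fold, adjusted p = 0.00633). The call sat on the 1.5-fold limit: the difference was −0.51 without control SNM array 1 and −0.47 without knockdown SNM array 2, neither of them called. The dimmer Psmb8 probe was not tested at the SNM stage.

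These 2 genes were the members called, 2 of 6 tested, against 19.9% of the 20765 probes tested. The other 4 members had adjusted p-values under 0.05 with changes under 1.5-fold. B2m was higher, at 11.59, 11.61 and 11.68 against 11.13, 11.12 and 10.99 (0.55, SE 0.06, adjusted p = 8.77e-07), and H2-K1 was higher at 9.78, 9.66 and 9.69 against 9.55, 9.27 and 9.39 (0.31, SE 0.10, adjusted p = 0.0130). The dim H2-K1 probe did not share this, with a difference of −0.12 and overlapping groups (adjusted p = 0.569). Tap1, a subunit of the peptide transporter, was lower at 5.17, 5.07 and 4.93 against 5.44, 5.85 and 5.27 (−0.47, SE 0.13, adjusted p = 0.00783). Bst2, or tetherin, which holds budding virus at the cell surface, was lower at 7.32, 6.93 and 7.40 against 7.66, 7.67 and 7.72 (−0.47, SE 0.11, adjusted p = 0.00197). Of the genes with an ISRE match, Ifit3, B2m and the Isg15 probe were thus on the high side and Bst2 on the low side in knockdown SNM. Ifit1 was undetected, and the Isg15 probe was undetected in control SNM.

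At the neuronal stage the 3 members called were genes of the class I pathway, all of them higher in knockdown cells: H2-K1, B2m and Psmb8. This was 3 of 6 tested, against 13.9% of the 20893 probes tested called higher and 27.4% called in either direction. H2-K1 read 9.06, 8.85 and 9.19 in control and 10.89, 10.63 and 10.81 in knockdown neuronal cells, a rise of 1.74 (SE 0.10, 3.35-fold, adjusted p = 1.73e-10). B2m read 11.78, 11.84 and 11.70 against 12.86, 12.89 and 12.82, a rise of 1.08 (SE 0.06, 2.12-fold, adjusted p = 1.14e-10). For Psmb8 the values were 7.42, 7.18 and 7.28 in control and 8.38, 8.39 and 8.26 in knockdown cells, a rise of 1.05 (SE 0.16, 2.07-fold, adjusted p = 4.37e-05). For all 3 genes the groups were apart on every array.

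The other probes of these genes moved the same way where they were detected. The second bright B2m probe rose by 1.04, the dim H2-K1 probe by 0.71 (SE 0.16, adjusted p = 0.00139) and the dim Psmb8 probe by 0.60 (SE 0.16, adjusted p = 0.00428), and the last B2m probe was detected on no array. Mouse class I heavy chains are near-identical in sequence, so an H2 probe may bind the RNA of several of them; this was not tested.

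The other 3 members tested at the neuronal stage, Ifit3, Tap1 and Bst2, were not called. Ifit3 read 7.20, 7.09 and 7.06 in control and 7.74, 7.75 and 7.52 in knockdown cells (0.55, SE 0.12, adjusted p = 0.000827), which was under the 1.5-fold limit, and it passed that limit without control neuronal array 1 (0.59) or knockdown neuronal array 3 (0.62). Tap1 read 5.40, 5.34 and 5.49 against 5.74, 5.71 and 5.31 (0.18, SE 0.13, adjusted p = 0.275), with overlapping groups. Bst2 read 7.40, 7.19 and 7.51 against 7.10, 7.28 and 7.06 (−0.22, SE 0.11, adjusted p = 0.100), also overlapping.

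**Figure D2:**
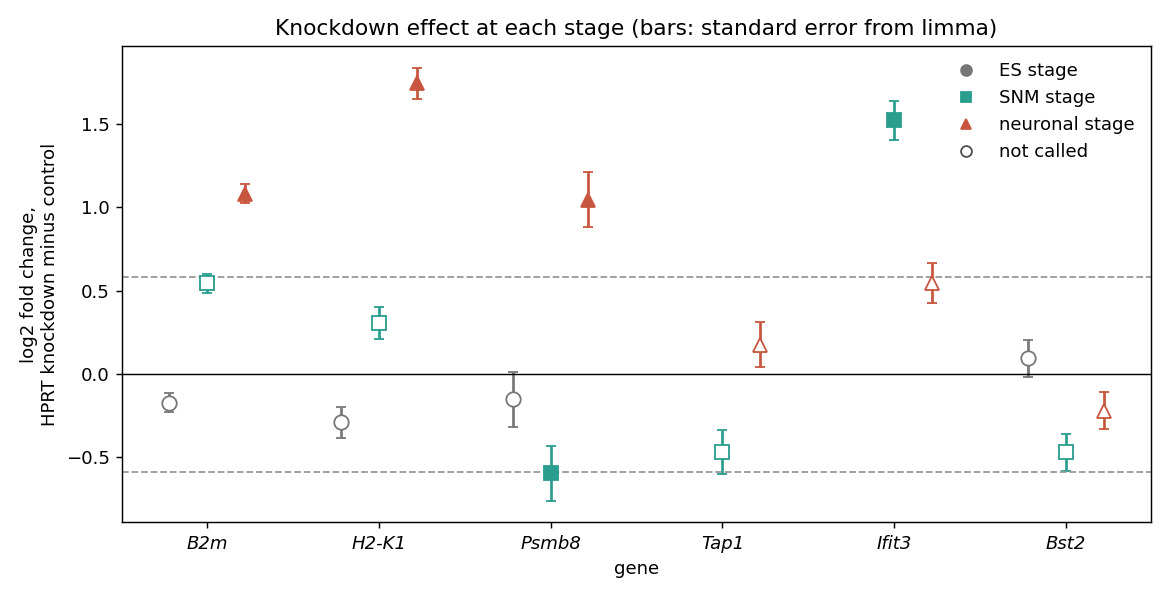
Log2 fold change of HPRT-knockdown over control cells (vertical axis) of the 6 genes that could be tested, at the ES (grey circles), SNM (green squares) and neuronal stage (red triangles). Bars are standard errors from limma, filled symbols were called, and dashed lines mark the 1.5-fold limit of 0.58; Ifit3 stands highest at the SNM stage with 1.52, and H2-K1, B2m and Psmb8 at the neuronal stage.

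The knockdown effect itself differed between stages for most of the members. So did the fall of Hprt1, which was smaller in SNM than in ES cells (difference 2.33, adjusted p = 2.17e-10, limma). It was larger again in neuronal cells than in SNM (−2.69, adjusted p = 7.215e-12, limma). The part of this in the differences of the members was not tested. From the ES to the SNM stage the effect became more positive for 3 of 6 members tested, against 21.3% of all probes tested called in either direction and 11.7% called higher. For B2m it went from −0.17 to 0.55 (difference 0.72, SE 0.08, adjusted p = 4.20e-06) and for H2-K1 from −0.29 to 0.31 (difference 0.60, SE 0.13, adjusted p = 0.00226). The B2m call was lost when arrays were scaled to the 75th percentile or not scaled (0.53 in both). The H2-K1 call was lost in the same settings (0.39 and 0.44) and with quantile normalization (0.53). The H2-K1 value does not rest on both of its probes, since the mean over the 2 gave 0.11 (adjusted p = 0.640). The fitted difference for Ifit3 was 1.48 (SE 0.17, adjusted p = 3.91e-06), but 5 of the 6 ES arrays did not detect it, so its ES effect was read at background and the value is not a measured size.

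From the SNM to the neuronal stage the knockdown effect was called different for 4 of 6, against 28.6% of all probes. It turned from −0.59 to 1.05 for Psmb8 (difference 1.64, SE 0.23, adjusted p = 2.30e-05) and went from 0.31 to 1.74 for H2-K1 (1.44, SE 0.13, adjusted p = 2.34e-07). It turned from −0.47 to 0.18 for Tap1 (0.64, SE 0.19, adjusted p = 0.0103) and went from 1.52 down to 0.55 for Ifit3 (−0.98, SE 0.17, adjusted p = 0.000147). The Ifit3 call was lost with quantile normalization (−0.58). The Tap1 call was lost in turn without control SNM array 2 (0.47), knockdown SNM array 3 (0.58) or knockdown neuronal array 1 (0.57) or 2 (0.58). It was also lost with quantile normalization (0.30), with 75th-percentile scaling (0.33) and without scaling (0.52). For B2m the further difference of 0.54 was under the 1.5-fold limit. Between these 2 stages the effect on Ifit3 was thus the larger one in SNM, and that on H2-K1 and Psmb8 was the higher one in neuronal cells.

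Most of the members rose in the course of differentiation in both kinds of cells. Between the ES and the neuronal stage 5 of 6 tested members rose in control cells (61.1% of all probes tested were called, 27.8% higher), and 5 rose and 1 fell in knockdown cells (63.7% called). In knockdown cells Psmb8 rose by 3.27 (SE 0.16), H2-K1 by 3.07 (SE 0.10), Ifit3 by 2.88 (SE 0.12) and B2m by 2.67 (SE 0.06). In control cells the same genes rose by 2.07, 1.03, 2.37 (at least 4.76-fold, Ifit3 being undetected in control ES cells) and 1.42. Every adjusted p here was 3.77e-08 or lower. Ifit3 was detected on only 1 of the 3 knockdown ES arrays, so its 2.88 includes readings at background and is not a measured size. The second Ifit3 probe, undetected in ES cells, was at least 1.57-fold higher in knockdown and at least 1.16-fold higher in control neuronal cells. The latter bound is under the 1.5-fold limit. The H2-K1 rise in control cells was seen by the bright probe alone: the dim H2-K1 probe differed by 0.0018 (adjusted p = 0.992), and the mean over both gave 0.52, which was not called. In knockdown cells the dim H2-K1 probe differed by 0.44 with overlapping arrays (adjusted p = 0.0192), under the 1.5-fold limit. The Psmb8 values are also those of its bright probe, which carries the symbol but no gene number in the annotation. The dim Psmb8 probe was not tested over this course in control cells (difference 0.27). In knockdown cells it rose at least 1.465-fold and was called.

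The 2 steps of the course are given in turn. From the ES to the SNM stage 5 of 6 members rose in control cells (49.1% of probes called, 23.7% higher), with Psmb8 up by 1.67, H2-K1 by 1.40, B2m by 0.73, Ifit3 at least 1.92-fold and Tap1 at least 1.57-fold. The dim H2-K1 probe differed there by 0.23 (adjusted p = 0.211), and the dim Psmb8 probe was not tested (difference 0.22). In knockdown cells 4 rose and Bst2 fell (57.3% called). H2-K1 rose there by 2.00 on its bright probe, while the dim H2-K1 probe differed by −0.16 (adjusted p = 0.380). Tap1, undetected in knockdown ES cells, was at least 1.09-fold higher and not called. From the SNM to the neuronal stage 2 of 6 rose in control cells, Ifit3 by 1.31 and B2m by 0.70 (29.4% called, 14.3% higher), while H2-K1 was lower by 0.37 (SE 0.10, adjusted p = 0.00313, under 1.5-fold). In knockdown cells 3 of 6 rose over this step, Psmb8 by 2.04, B2m by 1.23 and H2-K1 by 1.07 (28.6% called, 13.8% higher). Ifit3 was called over this step in control and not in knockdown cells, where the difference was 0.33 (SE 0.12, adjusted p = 0.0224). The arrays of its bright probe stood in the order control SNM, control neuronal, knockdown SNM, knockdown neuronal with no overlap between neighbours. The second Ifit3 probe did not keep this order. Its knockdown SNM arrays (mean 5.61) overlapped those of knockdown neuronal cells (5.58, difference −0.03, adjusted p = 0.852) and of control neuronal cells (5.09).

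Bst2 was the member that did not follow this course. It was detected on all 18 arrays and its mean was highest in ES cells, 7.90 (SD 0.04) in control and 7.99 (SD 0.13) in knockdown cells, which overlapped. It then fell in knockdown cells by 0.78 (SE 0.11, adjusted p = 6.69e-06) to the SNM stage and was 0.85 lower (SE 0.11) at the neuronal than at the ES stage. Without scaling between arrays these differences were −0.45 and −0.57 and neither was called, and the paired test of the methods did not call the first. In control cells the ES-to-neuronal difference of −0.54 (SE 0.11, adjusted p = 0.000287) was under the 1.5-fold limit, and its smaller ES-to-SNM difference of −0.21 became 0.18 without scaling between arrays, a setting that moved the median of all probes in that comparison from −0.08 to 0.19. Its 4 lower conditions lay between 7.15 and 7.69, and knockdown neuronal, knockdown SNM and control neuronal arrays overlapped with their neighbours.

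Tap1 was dim wherever it was detected. It was not detected on the 6 ES arrays and its mean was 5.05 (SD 0.12) in knockdown SNM, 5.41 (SD 0.08) in control neuronal, 5.52 (SD 0.30) in control SNM and 5.59 (SD 0.24) in knockdown neuronal cells. The last 3 overlapped. Its called rises from the ES to the neuronal stage were lost without background correction, with values of 0.50 in control and 0.52 in knockdown cells by quantile normalization.

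For the rest of the class I pathway, a list of 44 genes of antigen processing and presentation that includes B2m, Tap1, Psmb8 and H2-K1 was followed, of which 38 were on the array. At the neuronal stage 12 of the 27 tested were higher in knockdown cells and 0 lower, against 13.9% of all probes called higher and 27.4% called, and the median log2 fold change was 0.28 against 0.01 over all probes tested. H2-D1, the other classical heavy chain on the array, rose by 2.37 (SE 0.08, 5.16-fold, adjusted p = 2.07e-13), from 8.39 (SD 0.05) to 10.76 (SD 0.09). The non-classical class I genes H2-Q5 (1.60, SE 0.08), H2-T23 (1.54, SE 0.08), H2-Q7 (1.45, SE 0.17), H2-Q8 (1.23, SE 0.17) and H2-M3 (0.61, SE 0.09) rose as well, and H2-Q6 was at least 1.61-fold higher. The 4 genes with the kappaB core, H2-K1, H2-D1, H2-Q6 and H2-Q7, were among those that rose, and so were B2m, Psmb8 and Psmb9, which held no match. H2-Q6 was not detected in control neuronal cells. The part of the core in the rise was not tested. H2-Ke6, which also rose (0.62, SE 0.07), lies in the MHC region but encodes a dehydrogenase. Together with Psmb9, H2-K1, B2m and Psmb8 these are all 12 genes.

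No gene of the transporter or the loading complex was among them. Tap2, the partner of Tap1, differed by 0.28 (SE 0.16, adjusted p = 0.145), and Tapbp, which couples the transporter to the heavy chain, by 0.05 (SE 0.25, adjusted p = 0.878). In SNM 2 of 25 tested class I genes were higher, H2-Ke6 (1.08) and H2-Q5 (0.66), and 1 lower, Psmb8, against 19.9% of all probes called, with a median of 0.10 against −0.04 over all probes. H2-D1 differed there by 0.54 (SE 0.08, adjusted p = 2.07e-05), under the 1.5-fold limit. At the ES stage 1 of 19 was higher, H2-Bl (0.76, SE 0.08, adjusted p = 1.79e-05), against 1.68% of all probes called. This count of 1 ranged from 0 to 3 over the alternative settings.

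**Figure D3:**
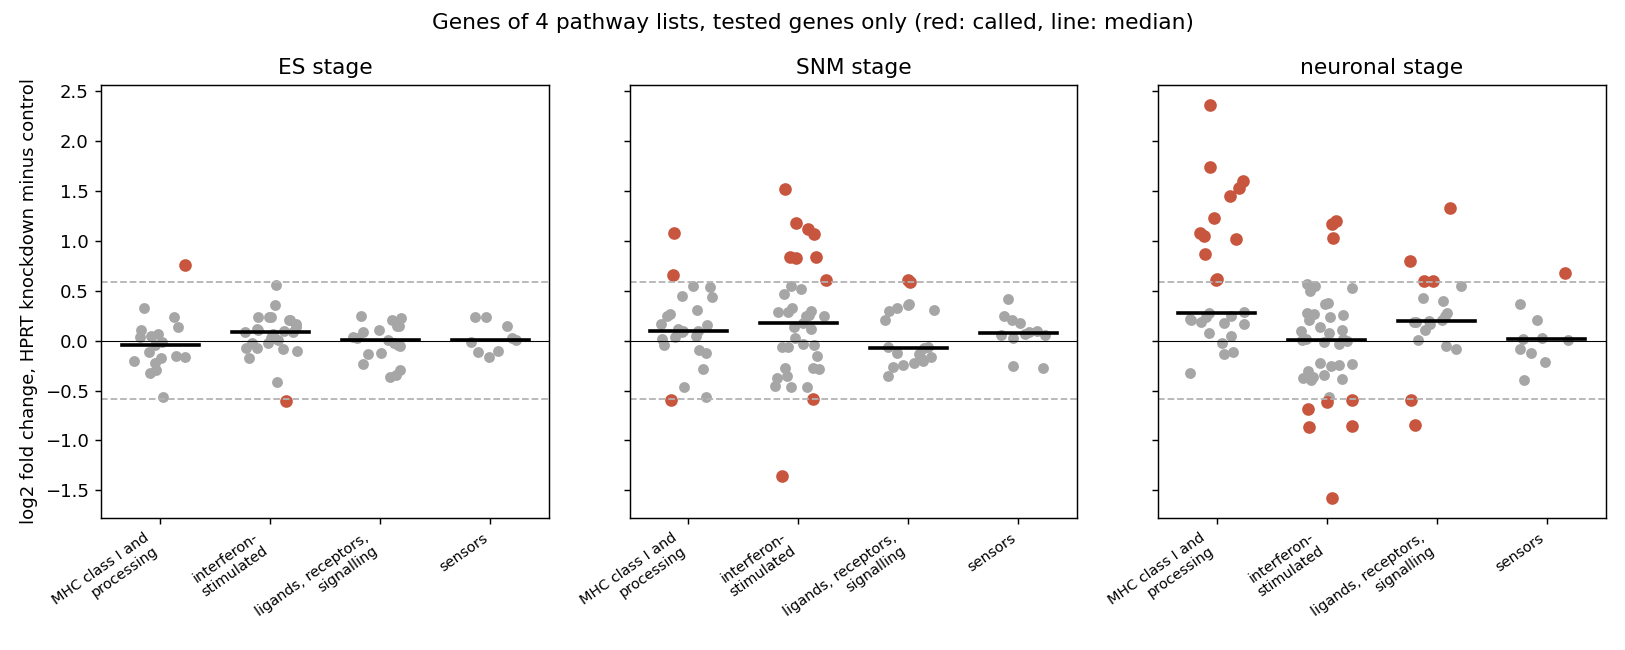
Log2 fold change of HPRT-knockdown over control cells (vertical axis) for the tested genes of 4 lists at the ES, SNM and neuronal stages. Each point is a gene, red if called and grey if not, the black line is the list's median and dashed lines mark 1.5-fold; at the neuronal stage 12 of 27 class I genes are called higher, and the interferon-stimulated genes spread on both sides of 0 around a median of 0.00.

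The interferon-stimulated genes as a list moved in both directions at the neuronal stage. Of 79 genes listed, among them Ifit1, Ifit3, Isg15, Irf7 and Bst2, 71 were on the array and 15 of these were detected on no array, including the antiviral genes Mx1, Oas1a, Oas1b and Oas3. At the neuronal stage 3 of 41 tested were higher in knockdown cells and 6 lower, 9 called in all, against 27.4% of all probes called, with a median of 0.00. This count of 9 ranged from 4 to 25 over the alternative settings. Mx2 (1.20, SE 0.12), a dynamin-like antiviral GTPase, Ifit2 (1.17, SE 0.15) and Isg20 (an RNA exonuclease, at least 1.62-fold) were the higher ones. Ifi27 (−1.58, SE 0.07), Lgals9 (−0.87, SE 0.11), Parp12 (−0.86, SE 0.12), Oasl2 (−0.69, SE 0.16), Pml (−0.62, SE 0.07) and Igtp (−0.59, SE 0.12) were lower. Ifit2 and Ifi27, both interferon-induced in other cells, moved in opposite directions in the same arrays.

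In SNM 8 of 37 tested interferon-stimulated genes were higher in knockdown cells and 2 lower, 10 called in all, against 19.9% of all probes called, with a median of 0.18 against −0.04 over all probes. Beside Ifit3 these were Lgals3bp (1.18, SE 0.16), Usp18, the protease that removes Isg15 from proteins (1.07, SE 0.09), Gbp2 (0.84, SE 0.07), Gbp1 (0.84, SE 0.13), Rsad2, or viperin (0.83, SE 0.12), Isg20 (at least 1.55-fold) and Ifi44 (at least 1.29-fold). Ifi44 was not detected in control SNM and its bound is under the 1.5-fold limit, so its call rests on a background reading. Ifi27 (−1.35, SE 0.07) and Ifitm3, a barrier to virus entry (−0.59, SE 0.06), were lower. The count of 10 called genes ranged from 4 to 23 over the alternative settings. At the ES stage 1 of 27 was called, against 1.68% of all probes. This was Lgals9, which was lower (−0.60, SE 0.11, adjusted p = 0.00301). The count of 1 ranged from 0 to 3 over the alternative settings.

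Of the ligands, 14 interferon genes with an Ifn symbol were on the array and 10 of them were detected nowhere, among them Ifnb1 and Ifng. Il28b, a listed interferon gene with another kind of symbol, was also detected on no array. Ifnab was detected on all 18 arrays, with means between 6.71 and 7.37, and Ifna1 on 17, with means between 4.84 and 5.47. Neither was called between knockdown and control cells at any stage. Ifnar1 was not detected either. Ifnar2 differed by 0.55 at the neuronal stage (SE 0.11, adjusted p = 0.000401), under the 1.5-fold limit, and Ifngr1 rose by 0.80 (SE 0.11, 1.74-fold, adjusted p = 1.66e-05), whereas its partner Ifngr2 differed by 0.18 (SE 0.23, adjusted p = 0.520). Stat2 and Irf9 were not called at any stage, with differences between −0.35 and 0.33.

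Over the whole list of signalling genes, 4 of 20 tested were higher and 2 lower in knockdown neuronal cells, against 27.4% of all probes called. Beside Ifngr1, Jak2 (1.33, SE 0.07), Socs3, a feedback inhibitor of the kinases (0.60, SE 0.05), and the transcription factor Irf8 (0.59, SE 0.09) rose. Jak1 (−0.85, SE 0.07) and the phosphatase Ptpn2 (−0.60, SE 0.10) fell. In SNM Il10rb (0.60, SE 0.09) and Jak2 (0.59, SE 0.07) were the 2 of 20 called, against 19.9% of all probes. Neither was called without control SNM array 3, and 1 was left without control or knockdown SNM array 2. At the ES stage 0 of 19 were called in limma, 6 had an unadjusted p under 0.05 at any fold, and the tests of the study's methods also gave 0.

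The sensors of foreign nucleic acid and their adaptors, of which only some serve double-stranded RNA, gave 1 call over the 3 stages. Of the 20 sensors and adaptors listed, 18 were on the array. Unc93b1, which brings endosomal Toll-like receptors to their compartment, was higher in knockdown neuronal cells (0.68, SE 0.16, adjusted p = 0.00169), 1 of 10 tested, against 27.4% of all probes. The call was lost without knockdown neuronal array 1 or control neuronal array 3. Of the earlier stages, SNM gave 0 of 12 and ES 0 of 9 called in limma, with 4 and 0 at an unadjusted p under 0.05 at any fold, and 0 at either stage by the tests of the methods.

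The immunoproteasome was compared with the standard proteasome, since Psmb8, Psmb9 and Psmb10 take the places of Psmb5, Psmb6 and Psmb7. At the neuronal stage Psmb9 rose by 1.02 (SE 0.12, 2.03-fold, adjusted p = 1.20e-06) beside the 1.05 of Psmb8, while Psmb10 differed by 0.29 (SE 0.06, adjusted p = 0.000778), under the limit. None of the 3 standard subunits was called in limma at any stage: the differences at the neuronal stage were −0.20 for Psmb5 (SE 0.09), −0.06 for Psmb6 (SE 0.06) and −0.19 for Psmb7 (SE 0.06), and 2 of the 3 had an unadjusted p under 0.05. The tests of the methods also called 0 of 3.

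**Figure D4:**
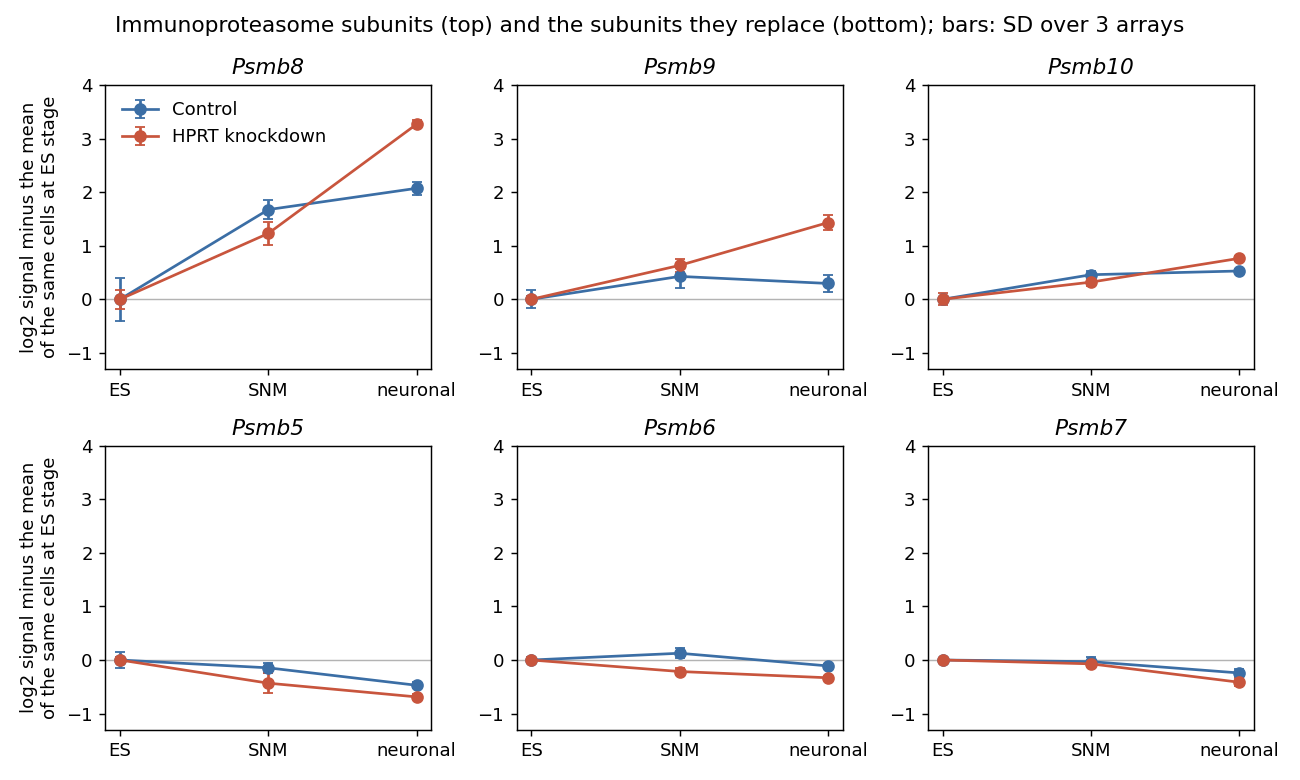
Mean log2 signal at each stage minus the mean of the same cells at the ES stage (vertical axis), for the immunoproteasome subunits Psmb8, Psmb9 and Psmb10 and, under each, the standard subunit it replaces. Blue is control, red HPRT knockdown, and bars are the SD of 3 arrays; Psmb8 in knockdown cells ends 3.27 above its ES level and in control cells 2.07 above it.

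Psmb9 and Tap1 are neighbours that are read away from each other, with 225 bases between their starts in the RefSeq table. The stretch is shown because the neuronal-stage values of the 2 genes on it were not alike, at 1.02 (called) for Psmb9 and 0.18 (not called) for Tap1; the difference between the genes was not tested. It held no match to the ISRE core or the kappaB core, so no letters are in capitals:
Tap1 and Psmb9, chr17:34187331-34187555, plus strand: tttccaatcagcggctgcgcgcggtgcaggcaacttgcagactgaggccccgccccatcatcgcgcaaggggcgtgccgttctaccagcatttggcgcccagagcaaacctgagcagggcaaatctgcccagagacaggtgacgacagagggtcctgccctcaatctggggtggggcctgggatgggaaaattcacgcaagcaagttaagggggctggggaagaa

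Markers of other cell types also differed between the neuronal-stage pools, those of oligodendrocytes and skeletal muscle by the largest factors, and these values stand beside every neuronal-stage result. For oligodendrocytes, 9 of 9 markers were higher in knockdown neuronal cells, and their summed signal was 66462 to 72132 against 7788 to 8114 in control cells. For skeletal muscle, 8 of 9 were lower, with sums of 194 to 304 against 61025 to 62345, and Myog, Myod1, Ckm and Tnnt3 were not detected in knockdown cells. Astrocyte markers were higher for 5 of 7 (14205 to 14892 against 8459 to 9107), neuronal markers lower for 5 of 7 tested (5260 to 5954 against 10776 to 11625) and fibroblast or feeder markers lower for 9 of 12 (13889 to 17228 against 25133 to 28671). Markers of pluripotent cells were lower for 7 of 9 tested (1032 to 1101 against 3779 to 3995). The part of these markers in the rise of the class I genes was not tested. In such bulk RNA, more cells of a type and more RNA per cell cannot be told apart.

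Markers of microglia and macrophages, immune cells that carry class I, were at or near the floor. Of 14 microglia or macrophage markers, 9 were detected on no neuronal-stage array of either group, among them Cx3cr1, Ptprc, Tyrobp and C1qa, and the list summed to 155 to 220 in knockdown and 181 to 184 in control neuronal cells. Only Cd14 was higher (0.69, SE 0.16), 1 of 4 tested. Endothelial markers summed to 1505 to 1542 against 4080 to 4261, with 1 higher and 2 lower of 5 tested. In SNM, beside the higher Ifit3, oligodendrocyte markers were lower for 7 of 8 tested (3476 to 3802 against 9135 to 9972), astrocyte markers higher for 4 of 7 (15406 to 16616 against 8320 to 9061), and fibroblast or feeder markers higher for 4 of 12 (8422 to 10033 against 7265 to 7760). Skeletal muscle markers were higher there for 6 of 8 tested (2384 to 2505 against 1311 to 1327) and pluripotent markers lower for 5 of 9 (3120 to 3272 against 4658 to 5051). Their part in the Ifit3 result was not tested.

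The probes whose signals ran most like those of each member over the 18 arrays, among the 23172 detected in a condition, are given as a description, since the arrays share 6 RNA pools. B2m ran most like Dkk3 (Pearson r = 0.996), Cpm (0.994) and Lamp2 (0.992). H2-K1 ran most like LOC100047888 (0.992), Scrg1 (0.992) and Sdcbp (0.989), and Psmb8 like 6330503C03Rik (0.983), Ggt7 (0.982) and Stambpl1 (0.981). The closest to Ifit3 were LOC637082 (0.990), Itm2b (0.988) and AI646023 (0.987), none of them on the interferon-stimulated list. Those of Tap1 were Josd1 (0.962), Slc2a6 (0.961) and Bahcc1 (0.960), and those of Bst2 were Polr1c (0.954), LOC671641 (0.951) and Nup88 (0.951). No member was among the 3 closest probes of another.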

How the data were processed

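The RNA pools of 6 conditions were each measured on 3 Illumina MouseWG-6 v2 arrays. The authors deposited, per probe and array, the signal intensity with no normalization and the detection p-value. A second deposited table supplied the annotation; its 72 columns of per-sample values, named by chip and position, were not used. Groups and array numbers came from the sample titles.

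Signals were corrected, quantile-normalized and set on the log2 scale with limma 3.58.1 (R 4.3.3), function neqc (offset 16, background from the deposited detection p-values). A single model of the 6 conditions (lmFit, contrasts.fit, eBayes) gave 11 comparisons: knockdown against control at each stage, stages within each cell type, and 2 differences of the knockdown effect. Testing required detection at 0.05 by every array of a condition in the comparison, and p-values were adjusted over all probes tested. The script was tested on simulated data. Where a probe was detected on no array of a group, the fold is a lower bound against the lowest detected signal of each array, or the probe's own where higher. The number of arrays and the single RNA pool of each condition limit the precision. Tests are two-sided, and 3 arrays against 3 cannot go below an exact permutation p of 0.1.

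The members and gene lists were chosen with earlier results of these data known, so their counts are descriptions. Named are all probes of the members and Hprt1, the members' partners, up to 4 called genes with the largest change per list, direction and comparison of knockdown with control, and for each detected member the 3 most similar probes; where a called set is named in full, the further names were added after the values were seen. At the SNM stage arrays of equal number deviated together (correlations 0.49, 0.11 and 0.49 across probes), as they did between the SNM and neuronal stages (0.52, 0.14 and 0.51) and the ES and neuronal stages (0.41, 0.11 and 0.34) of knockdown cells; the number as a block was an alternative. Further alternatives were other normalizations, filters and fold limits, the mean over a gene's probes, the methods' t-tests and leaving out each array. Promoters came from a RefSeq table (GRCm38.p6).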

Additional observations from a re-analysis of the deposited data

Results flagged for a closer look

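Each of the following was picked out because the difference between the knockdown effects at 2 stages passed the test and the 1.5-fold limit. From ES cells to SNM it differed by 1.48 (log2) for Ifit3, 0.72 for B2m and 0.60 for H2-K1. From SNM to neuronal cells it differed by 1.64 for Psmb8, 1.44 for H2-K1, 0.64 for Tap1 and −0.98 for Ifit3. The adjusted p-values ranged from 2.34e-07 to 0.0103 (limma). The earlier difference for Ifit3 includes an effect in ES cells read at background. The later differences for Psmb8 and H2-K1 kept their call in every alternative run, and those for B2m, for Tap1, the earlier one for H2-K1 and the later one for Ifit3 lost it under some settings. No sample stood apart by a test within a condition, since groups of 3 arrays were not tested for it.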

How the results depend on the processing

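The neuronal-stage calls of H2-K1, B2m and Psmb8 held under each of the alternatives run. Of the 2 SNM-stage calls, 1 was left with quantile normalization, with scaling to the 75th percentile, without scaling, at 2-fold, with the mean over probes, with the unpaired t-test after Benjamini-Hochberg adjustment and with the unadjusted paired t-test; the adjusted paired t-test (replicate block) left 0, and no minimum fold gave 6. Leaving out 1 array gave 1 to 3. The replicate block in limma changed no count of members called (2 at the SNM stage with and without it).

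For the stage comparisons in control cells, the ES-to-SNM count of 5 was 3 with quantile normalization, 2 with 75th-percentile scaling and 2 with detection in every condition. The SNM-to-neuronal count of 2 was 1 with 75th-percentile scaling or at 2-fold and 5 with no minimum fold, and the ES-to-neuronal count of 5 was 2 with detection in every condition. The SNM-to-neuronal count of 3 in knockdown cells was 5 with no minimum fold. For differences of the knockdown effect, SNM minus ES (3) gave 1 with 75th-percentile scaling, without scaling or at 2-fold and 5 with no minimum fold, and neuronal minus SNM (4) gave 2 with quantile normalization or at 2-fold. The cause was not tested where a normalization moved a count; the other settings change the limit or the probes tested.

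Direction turned in 4 single values, all of them uncalled: Psmb8, knockdown against control at the ES stage (−0.34 to 0.066 leaving out 1 array, the latter without control ES replicate 3), Bst2 from ES to SNM in control cells (0.18 without scaling), Tap1 from SNM to neuronal in control cells (−0.23 to 0.057, the latter without control SNM replicate 2) and Bst2 over the same step in knockdown cells (−0.21 to 0.021, the latter without knockdown SNM replicate 3). Ifit1 and Irf7 never rose above background, and Tap1, dim Psmb8 and dim H2-K1 signals lie close to it, where folds are compressed.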

Other observations

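Of the MHC class II genes, which present peptides to helper T cells and are normally confined to specialised cells, 12 were on the array and 5 were detected nowhere, among them H2-Aa, the usual partner of H2-Ab1, and Ciita, the regulator of the class. H2-Ab1 was nevertheless well detected. Its mean log2 signal was 5.87 (SD 0.15) in control and 6.19 (SD 0.07) in knockdown ES cells, 8.30 (SD 0.04) and 8.29 (SD 0.08) in SNM, and 6.68 (SD 0.16) and 8.07 (SD 0.09) in neuronal cells (n = 3 arrays each). Control and knockdown SNM thus overlapped, and at the neuronal stage the knockdown level was 1.39 higher (SE 0.09, 2.62-fold, adjusted p = 9.23e-10, limma). It was the 1 call among 5 tested class II genes, against 27.4% of all probes called at that stage.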
